A study of Mus musculus with 8 samples.

Results

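2410006H16Rik is a non-coding gene on mouse chromosome 11 whose introns hold 3 small nucleolar RNA (snoRNA) genes, Snord49b, Snord49a and Snord65. These 4 genes, of 55450 in the GENCODE vM21 annotation, were chosen by the high signal value of the PRDM10 peak that they share, so the signal value and rank of that peak are given below as a description. Every peak on the 4 genes, in the 5 kb before them or in the 1 kb after them was collected, which gave 1 peak in each of 2 deposited lists.

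PRDM10, a zinc finger protein of the PRDM family, was profiled by chromatin immunoprecipitation with sequencing (ChIP-seq) in mouse embryonic stem cells (mESCs). All cells derived from a Prdm10F/F; Rosa26-CreERT2 genotype, in which a tamoxifen-dependent Cre recombinase expressed from the Rosa26 locus excises the floxed Prdm10 segment. EtOH cells received ethanol and carry the label Prdm10F/F; Rosa26-CreERT2, and 4-OHT cells received 50 nM 4-hydroxytamoxifen and carry the label Prdm10del/del; Rosa26-CreERT2; exposure lasted 24 h and the harvest was at 48 h. For each treatment, 3 ChIP samples were made with 3 different rabbit antibodies (polyclonal 1 and polyclonal 2, both generated in-house, and A303-204A of Bethyl Laboratories), and 1 input sample was sequenced. The authors pooled the 3 ChIP samples into 1 peak list per treatment, with 528 EtOH peaks and 176 4-OHT peaks, so no value below has a replicate error and no test between treatments was possible. Read counts are not part of the lists used here, and the depth behind each peak is therefore unknown. The lists hold no expression values, so neither the loss of Prdm10 nor the mESC identity was checked in them.

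snoRNAs are short nuclear RNAs that guide chemical modification of other RNAs, mainly ribosomal RNA. Those of the box C/D class carry a C box near the 5′ end and a D box near the 3′ end, bind fibrillarin, Nop56, Nop58 and Snu13, and direct 2′-O-methylation at the base paired with a guide stretch next to a D box. Most mammalian snoRNAs lie in introns and are trimmed out of the spliced intron, so the promoter of the host gene also drives their synthesis. In some host genes, such as Gas5 and the Snhg genes, the spliced RNA codes for no protein.

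2410006H16Rik (ENSMUSG00000086841, a processed transcript) spans chr11:62602877-62604807 of GRCm38 (mm10) on the plus strand. It has 1 annotated transcript with 5 exons over 1931 bp. The 4 introns are 211, 314, 756 and 188 bp long, and each snoRNA gene lies wholly within an intron. Snord49b (ENSMUSG00000064437, chr11:62603079-62603150) is in intron 1, and begins 202 bp after the transcription start site (TSS) of the host. Snord49a (ENSMUSG00000065734, chr11:62603450-62603521) is in intron 2, at 573 bp from the host TSS. Both are known as guides for the large-subunit ribosomal RNA. Snord65 (ENSMUSG00000077457, chr11:62604515-62604586), a guide for the small-subunit ribosomal RNA, is in intron 4 and begins 1638 bp after the host TSS. Intron 3, the longest, holds no annotated snoRNA gene. The snoRNA genes end 84, 75 and 68 bp before the next exon in the order Snord49b, Snord49a and Snord65, whereas their distances from the preceding exon are 55, 167 and 48 bp.

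The sequences of the 3 snoRNA genes, read from the reference genome 5′ to 3′, show what lies downstream of the bound promoter. Capitals mark each TGATGA, the C box sequence, and each CTGA, the D box sequence, wherever they occur on the transcribed strand:
Snord49b: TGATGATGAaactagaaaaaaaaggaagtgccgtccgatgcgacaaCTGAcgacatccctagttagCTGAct
Snord49a: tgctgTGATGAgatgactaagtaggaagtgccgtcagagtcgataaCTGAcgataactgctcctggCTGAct
Snord65: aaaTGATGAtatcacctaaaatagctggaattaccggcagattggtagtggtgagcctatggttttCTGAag

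In each of the 3 genes the last CTGA, near the 3′ end, is at bases 67 to 70 of 72. Snord49b and Snord49a have another, internal CTGA at base 47. In Snord49b, 2 overlapping TGATGA runs open the gene. Of 1507 annotated snoRNA genes, 380 (25.2%) hold both boxes anywhere, and 266 (17.7%) hold TGATGA in the first 15 bases and CTGA in the last 10, as these 3 do. Snord49b and Snord49a are the most alike, with 54 identical positions in 78 alignment columns (69.2%) and a shared run of 13 bases, aggaagtgccgtc, at bases 23 to 35 of both (global alignment). Snord65 is 56.4% identical to Snord49b and 56.2% identical to Snord49a, and its longest run shared with either covers the C box. RefSeq gives shorter genes of 63 bp for Snord49b, 62 bp for Snord49a and 57 bp for Snord65.

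The promoter of 2410006H16Rik, from 250 bases before to 50 bases from the TSS on, is printed because both peak summits and both matches to the PRDM10 motif lie in it (RefSeq, GRCm38.p6, chr11:62602627-62602926, plus strand). The TSS is base 251, the EtOH summit base 148 and the 4-OHT summit base 161. Capitals mark the 2 motif matches, at bases 98 to 111, where the match reads on the opposite strand, and at bases 202 to 215:
2410006H16Rik promoter: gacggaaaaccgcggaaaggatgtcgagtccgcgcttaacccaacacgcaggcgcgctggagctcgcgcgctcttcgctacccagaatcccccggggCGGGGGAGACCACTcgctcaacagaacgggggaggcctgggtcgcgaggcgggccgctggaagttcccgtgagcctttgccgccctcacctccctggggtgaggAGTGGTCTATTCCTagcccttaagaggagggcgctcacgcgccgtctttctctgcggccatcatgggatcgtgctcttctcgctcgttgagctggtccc

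In the EtOH list, the peak at this promoter spans chr11:62602584-62602964 (381 bp). Of this, 293 bp lie before the TSS and 88 bp in exon 1, and its summit at position 62602774 is 103 bp upstream of the TSS. Its signal value, which the peak caller SPP gives each peak of the pooled samples, was 764. That was rank 5 of 528, in a list with a median of 131 and a range of 9.78 to 900. The peaks directly above and below were nearest to Tardbp (signal value 771), which encodes an RNA-binding protein, and Galnt10 (759), which encodes a glycosyltransferase. The reproducibility score (IDR score) was at its cap of 1000, as for 504 of the 528 peaks. By width, 375 EtOH peaks were wider and the median was 430 bp. Nothing about the breadth of binding is read from the widths in either list. The summit was nearer to a TSS in 186 of the other peaks, and the median distance was 148.5 bp.

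In the 4-OHT list, the peak spans chr11:62602462-62603101 (640 bp), with its summit at position 62602787, 90 bp upstream of the TSS. Its signal value of 434 was rank 1 of 176, in a list with a median of 55.7 and a lowest value of 14.2. The next value, 427, belonged to a peak nearest to Taf15, a gene for another RNA-binding protein. The score was again 1000, a value that 98 of the 176 peaks shared. Here 134 peaks were wider and the median width was 1140 bp. The peak was also the highest of its chromosome in both lists, among 52 EtOH peaks and 30 4-OHT peaks on chromosome 11.

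**Figure D1:**
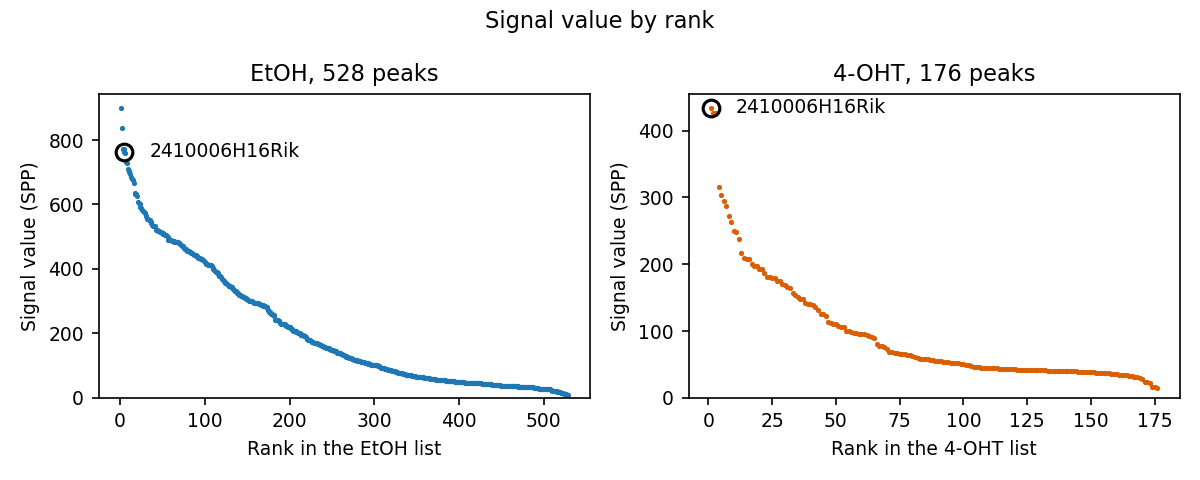
Signal value (SPP, vertical axis from 0) against rank for each peak of the EtOH list (left, 528 peaks) and the 4-OHT list (right, 176 peaks), with the 2410006H16Rik peak circled. It is rank 5 with 764 in EtOH and rank 1 with 434 in 4-OHT, and the vertical scales of the panels differ because the lists have no common scale.

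The peak was thus listed in both treatments. The 4-OHT peak contains the whole EtOH peak, from 122 bp before its start to 137 bp after its end, and the shared 381 bp make up 59.5% of the 4-OHT peak. The summits are 13 bp apart, against a median of 30 bp over the 121 pairs of overlapping peaks, of which 40 have a smaller gap. In all, 107 EtOH peaks (20.3%) overlapped a 4-OHT peak, and of the 176 4-OHT peaks, 109 did so with an EtOH peak. The 2 lists have no common scale, so their signal values were not set against each other, and whether occupancy at 2410006H16Rik differed between treatments could not be measured from these lists.

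The ranks of overlapping peaks are given side by side as a description, since 2410006H16Rik was chosen by its signal value and the lists differ in length, at 528 and 176 peaks. Of the 10 highest EtOH peaks, the one nearest to Cenpn, a centromere protein gene, had EtOH rank 2 and 4-OHT rank 3. The one nearest to Tardbp had ranks 4 and 12. The highest EtOH peak, at Rnf44, a RING finger gene, overlapped a 4-OHT peak of rank 81. Those nearest to Pip5k1c, a lipid kinase gene, and Gm16062 had no overlapping 4-OHT peak. The 10 highest 4-OHT peaks had EtOH ranks from 2 to 73. The peak nearest to Taf15, directly below that of 2410006H16Rik, had EtOH rank 12.

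**Figure D2:**
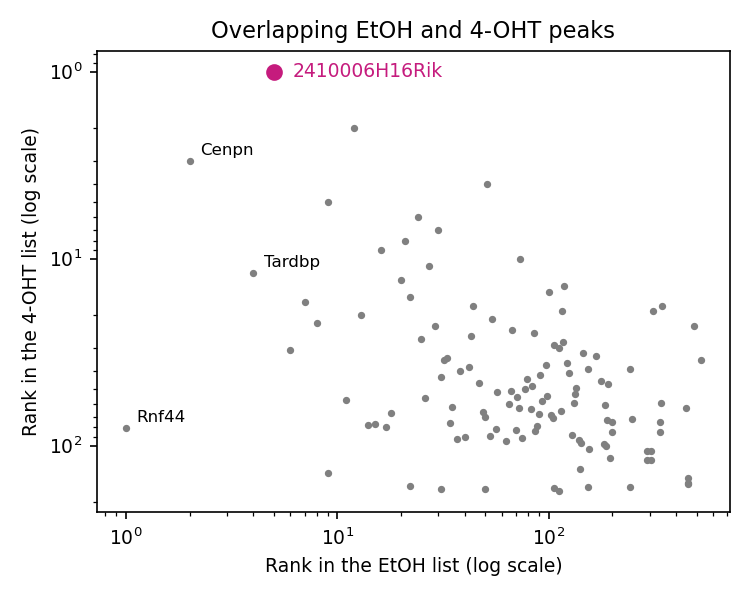
Rank in the EtOH list (horizontal) against rank in the 4-OHT list (vertical, rank 1 at the top), both on log scales, for the 121 pairs of overlapping peaks; each point is a pair. The 2410006H16Rik pair is at ranks 5 and 1, and the Rnf44 pair is at ranks 1 and 81; the lists hold 528 and 176 peaks.

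Both summits lie upstream of the host gene, and the snoRNA genes follow at growing distance. Snord49b begins 305 bp after the EtOH summit, Snord49a 676 bp and Snord65 1741 bp. The EtOH peak ends 114 bp before Snord49b, 485 bp before Snord49a and 1550 bp before Snord65, and overlaps no snoRNA gene. The wider 4-OHT peak reaches 23 bp into Snord49b and ends 348 bp before Snord49a and 1413 bp before Snord65. How many of the 4 genes count as bound thus rests on the rule for joining genes to peaks. With the window that the study used, which adds 5 kb before and 1 kb after the gene, all 4 genes joined the peak in both lists. A peak on the TSS or the 1 kb upstream of it took in 2410006H16Rik, Snord49b and Snord49a but not Snord65. With the gene body only, the EtOH peak joined 2410006H16Rik and the 4-OHT peak joined 2410006H16Rik and Snord49b, and the TSS nearest to the summit was that of 2410006H16Rik in both lists.

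**Figure D3:**
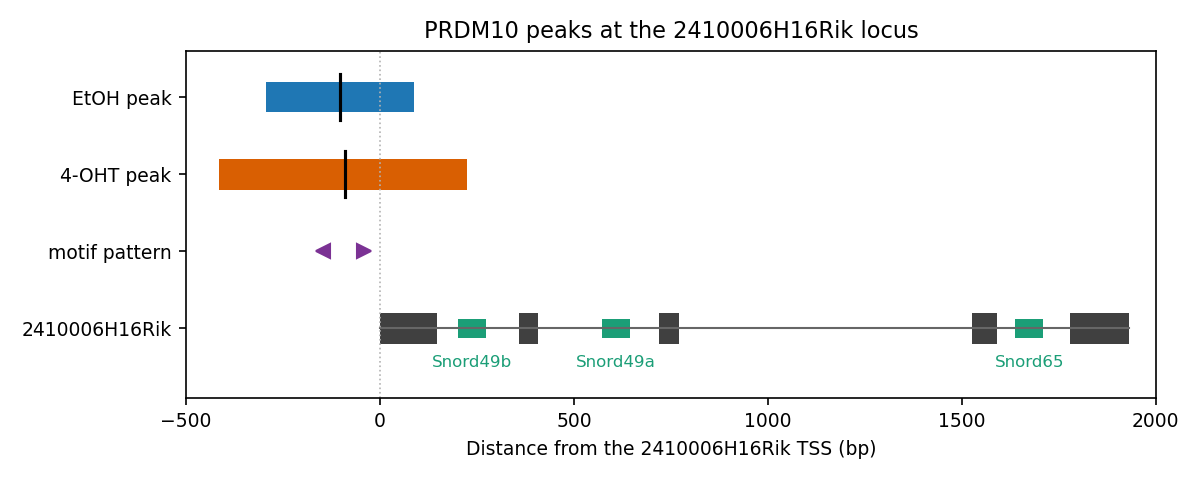
Map of the locus in bp from the 2410006H16Rik TSS (horizontal axis), with both peaks as bars, their summits as black lines, the 2 motif matches as arrowheads pointing along the strand they read on, exons in dark grey and snoRNA genes in green. The summits, 103 and 90 bp upstream of the TSS, lie between the matches, and the snoRNA genes lie to the right of the EtOH peak.

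The peak stood alone in its surroundings. In the EtOH list the nearest other peak was 2.75 Mb before it, nearest to Nt5m (signal value 19.6, rank 516), and the next one after it was 4.42 Mb away, nearest to Tmem220 (44.1, rank 427). A larger gap to the nearest other peak was found for 107 of the 528 EtOH peaks. In the 4-OHT list, the neighbours were 4.96 Mb before it, nearest to Galnt10 (signal value 166, rank 31), and 18.0 Mb after it, nearest to C030013C21Rik (45.01, rank 108). A 5th gene, the antisense RNA gene Lrrc75aos2 on the same strand, also joined the peak through its upstream window, although its TSS is 2992 bp after the EtOH summit and beyond the end of 2410006H16Rik. Trpv2, a cation channel gene that ends 2361 bp before 2410006H16Rik, did not join it. Neither did Lrrc75a, which runs on the minus strand and ends 76 bp after the end of 2410006H16Rik. The nearest TSS on the minus strand, that of Gm12280, is 36391 bp away, so the annotation shows no divergent partner at this promoter.

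The DNA under the peak was searched on both strands for the motif of PRDM10. The search used a core of TGGTNNNNNCC, that is TGGT, any 5 bases, then CC, and a 14-base pattern around it read by eye from the study's motif logo. The study found its motif in these same EtOH peaks, so a match in them is a description and not independent evidence of binding. The EtOH peak held 2 core matches, both of which also met the 14-base pattern, and they read on opposite strands. Each is shown 5′ to 3′ on its own strand, with the fixed bases of the core in capitals, beside the corresponding stretch of the wild-type (WT) probe that the study designed for its gel-shift assays:
Minus-strand match: agTGGTctcccCCg
Plus-strand match: agTGGTctattCCt
WT probe: agTGGTcgcgcCCg

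The minus-strand match is at chr11:62602724-62602737, centred 146.5 bp upstream of the TSS, and the plus-strand match is at chr11:62602828-62602841, centred 42.5 bp upstream of it. Their centres are 104 bp apart with 90 bases between the matches, and both summits lie between them. The EtOH summit is 43.5 bp from the minus-strand centre and 60.5 bp from the plus-strand centre, and for the 4-OHT summit these distances are 56.5 and 47.5 bp. The first 8 of the 14 bases are the same in both matches, and 10 are the same in all. The minus-strand match shares 12 positions with the probe, and the plus-strand match shares 9. The probe stretch itself has 1 mismatch to the 14-base pattern. The mutated probe of the study holds 0 core matches, and the 3 snoRNA genes also hold 0.

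Matches on both strands were uncommon. The core was found in 13.8% of 32851 RefSeq promoter windows of 300 bases and on both strands in 0.828% of them. The 14-base pattern was found in 1.33% of the windows and on both strands in 9 (0.0274%), the genes being 2410006H16Rik, Rnf44, Ephb2, Nphp4, Zfp27, Get3, Cenpp, Ptcd2 and Mrps27. All 9 windows overlapped an EtOH peak, with Ptcd2 and Mrps27 sharing 1, at ranks from 1 for Rnf44 to 281 for Zfp27. This overlap is a description only. The pattern comes from a motif found in these same peaks, and 2410006H16Rik was chosen for its peak. Among the EtOH peaks, which differ in width, 339 (64.2%) held the core, 175 (33.1%) the 14-base pattern and 16 (3.03%) the 14-base pattern on both strands. The corresponding shares of the 4-OHT peaks, which are wider, were 69.3%, 33.5% and 8.52%. In windows of 300 bp around the summits, the size of the promoter windows, the core was found in 59.7% of the EtOH and 51.1% of the 4-OHT peaks, the 14-base pattern in 31.2% and 29.5%, and the 14-base pattern on both strands in 2.27% and 3.41%. The order of the lists for the core thus turned with the width searched. Of the 16 EtOH peaks, 13 had the minus-strand match first, as at 2410006H16Rik, and 11 of these had the summit between the matches. By signal value 2410006H16Rik was second among the 16, behind Rnf44. The median signal value was 99.7 in the 353 EtOH peaks without the 14-base pattern. It was 204 in the 147 with 1 match and 325 in the 28 with 2 or more. In the 16 of these 28 with matches on both strands it was 428. These medians are a description, since the pattern came from these peaks. The 28 and the 16 also include 2410006H16Rik, which was chosen by its signal value. Peaks without a match nonetheless reached 838, above the 764 of 2410006H16Rik.

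The base composition around the summit was also described. In the 300 bp around the EtOH summit, GC content was 65.3%, against a median of 58.8% over the list, and 156 peaks were higher. The observed to expected CpG ratio was 0.969, against a median of 0.688, and 56 peaks were higher. Around the 4-OHT summit the values were 66.3% and 0.970, against medians of 55.8% and 0.654. Many snoRNA host genes start at a cytosine within a run of pyrimidines, an arrangement known from genes of the translation machinery. The annotated TSS of 2410006H16Rik has this form, shown here with the run of 9 pyrimidines in capitals, 5 before the TSS and 4 from the TSS on:
2410006H16Rik start: gcgccgTCTTTCTCTgcggcc

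Of the 32851 promoter windows, 560 (1.70%) have a cytosine at the TSS and a run at least as long. The start of the run and the summit are separated by the plus-strand motif match.

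The 4 genes were then set beside the other genes of their kinds. Over all 55450 genes, 691 (1.25%) had an EtOH peak in that window, and 210 (0.379%) had a 4-OHT peak. Of the 1507 snoRNA genes, 14 (0.929%) had an EtOH peak, a share no higher than that of all genes, and Snord49b, Snord49a and Snord65, chosen for their peak, were 3 of the 14; without them the count was 11 of 1504 (0.731%). The other 11 comprised 5 in Nop56, 3 in Eif4a1, Gm24233 in Mia2, Gm23639 in Epb41l4aos and Gm24912 with no host. In the 4-OHT list, 10 snoRNA genes (0.664%) had a peak, a share above that of all genes. These 10 include the 3 chosen genes and the 5 in Nop56, which share a peak. The EtOH summit was nearest to the snoRNA gene for Snord49b, at 305 bp, followed by Gm23639 at 349 bp and Snord49a at 676 bp. These were also the 3 snoRNA genes (0.199%) with an EtOH peak at their own start or the 1 kb upstream of it, beside 0.777% of all genes. Without the chosen genes the count was 1 of 1504 (0.0665%). In 0 of the 14 did an EtOH peak lie on the gene itself.

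Host genes were defined as genes of another type that hold a snoRNA gene wholly on the same strand. Of 329 such genes, 13 (3.95%) had an EtOH peak and 8 (2.43%) a 4-OHT peak. Not all of the 8 are among the 13, and the hosts described below are those with an EtOH peak. Of all 21951 protein-coding genes, 544 (2.48%) had an EtOH peak and 161 (0.733%) a 4-OHT peak. Without 2410006H16Rik, chosen for its peak, 12 of 328 (3.66%) had an EtOH peak. Among the 70 hosts that are not protein-coding, 2 (2.86%) had an EtOH peak, 2410006H16Rik and Epb41l4aos, beside 117 of 27415 (0.427%) genes that are neither protein-coding nor of a small RNA class. Without 2410006H16Rik these counts were 1 of 69 (1.45%) and 116 of 27414 (0.423%), and nothing is read from a count of 1. Hosts are long, with a median length of 36428 bp against 3324 bp over all genes, and a longer gene offers more room for a peak. With a peak at a TSS or the 1 kb upstream of it, where length counts for less, 8 hosts (2.43%) were left, beside 431 of all genes (0.777%) and 383 of 21951 protein-coding genes (1.74%). Without 2410006H16Rik, 7 of 328 hosts (2.13%) were left. 2410006H16Rik had the highest EtOH signal value of the 13 and, by its best-ranked peak, the highest 4-OHT rank.

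Distances to a TSS were taken to the nearest annotated transcript start of the gene, which need not be its 5′ end. Of the other 12 hosts, 5 had an EtOH summit within 136 bp upstream of such a start and a 4-OHT peak as well. For Mia2 this was an internal start, and the summit lay 35606 bp after the 5′ end of the gene. For the others it was the 5′ end. The 5 were Mia2, which acts in protein export from the endoplasmic reticulum (signal value 634, EtOH rank 18, 4-OHT rank 67), the scaffold protein gene Sash1 (553, 34 and 76), the non-coding Epb41l4aos (544, 37 and 92), Nop56 (355, 125 and 41) and the mitochondrial translation gene Ptcd3 (334, 134 and 49). Nop56 itself encodes a box C/D protein, and its 5 snoRNA genes make it the only other host with 3 or more snoRNA genes and peaks in both lists. Of 37 hosts with at least 3 snoRNA genes, 3 (8.11%) had an EtOH peak, namely 2410006H16Rik, Nop56 and Eif4a1. Without 2410006H16Rik the count was 2 of 36 (5.56%), beside the 3.66% of all hosts without it. Eif4a1, a translation initiation factor gene (signal value 63.6), Srcap (46.8) and Chd8 (35.7), both chromatin remodeller genes, had their summits 117, 160 and 294 bp downstream of the nearest transcript start. From the 5′ end of the gene, these summits were 810, 1195 and 351 bp downstream. A 4-OHT peak was found at 0 of these 3 genes.

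The remaining 4 hosts carried peaks far from any of their own transcript starts. Gm20388 is a gene model of 4434882 bp that runs across many other genes, and its highest peak (signal value 420) is 85 bp upstream of the TSS of Cdt1, a replication licensing gene. Gm42416, Gm37013 and Gm37388 are overlapping models that share 1 peak (154) more than 240 kb from each of their own TSSs. Of the 13 hosts, only 2410006H16Rik had matches to the 14-base pattern on both strands of its highest peak. Epb41l4aos, Nop56 and the peak of the 3 overlapping models had 1 match each, and the others had 0.

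**Figure D4:**
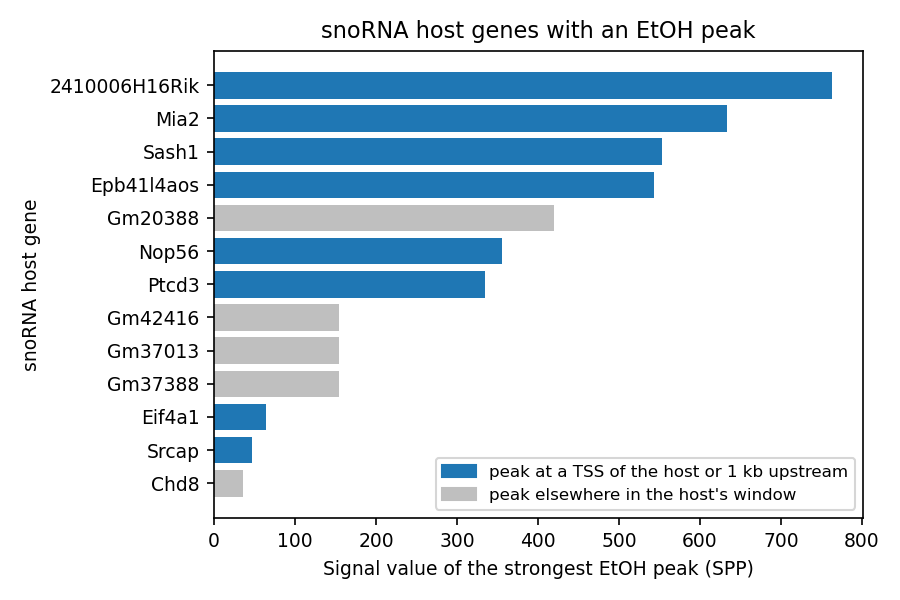
Signal value (SPP, horizontal axis from 0) of the strongest EtOH peak for each of the 13 snoRNA host genes with a peak, in order of signal value, with bars coloured by where the peak lies. 2410006H16Rik is highest at 764, followed by Mia2 at 634, and Chd8 is lowest at 35.7.

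Genes of the snoRNA pathway were taken from textbook lists. Of 24 listed non-coding snoRNA hosts, 21 were found by symbol, and 2 had a peak in both lists, Epb41l4aos and 2410006H16Rik, whose peak was the ground for choosing it. Epb41l4aos was thus 1 of 20 that were not chosen for a peak, again a count of 1. The other 19, which include Gas5, Snhg1, Zfas1 and Dancr, had no peak in the EtOH list. Of the 4 box C/D proteins, Nop56 had a peak, and Fbl (fibrillarin), Nop58 and Snu13 did not. A peak was found at 0 of the 4 genes for proteins of the box H/ACA snoRNAs, the other main class (Dkc1, Nhp2, Nop10 and Gar1). It was also found at 0 of the 10 assembly factor genes, among them Ruvbl1, Ruvbl2 and Nufip1. At a share of 1.25% over all genes, counts of 0 in lists of 4 and 10 genes say nothing about those lists. A gene without a peak is one that did not pass the reproducibility threshold in the pooled list, which is not a measurement of absent binding.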

How the data were processed

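PRDM10 ChIP-seq peaks of EtOH and 4-OHT mESCs were used as the authors deposited them, in 1 list per treatment. Per the study's methods and processing notes, the authors aligned reads to mm10 with BWA (v0.7.13), filtered them with Picard (v2.10.6) and SAMtools (v1.2), called peaks with SPP on the pool of 3 ChIP samples against input, removed blacklisted peaks and selected peaks by IDR between pooled pseudo-replicates. The deposited signal value is the one that SPP gives each peak, and it is not read here as a fold over input. The deposited score is the IDR score, capped at 1000. A further deposited score, standing for the FDR, was not used. Peak positions and summit offsets are in bp as the authors deposited them, with starts written here from 1.

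A peak was joined to each GENCODE vM21 gene that it overlapped after adding 5 kb before and 1 kb after the gene. Peaks were ranked by signal value within a list and compared by overlap of at least 1 bp. Motifs were searched in unmasked sequence. Python (v3.11.15), pandas (v2.3.3), pyfaidx (v0.9.0.4) and Biopython (v1.88) were used, and the search and join functions were tested on simulated data. No statistical test was run, since the lists are pooled and hold no counts. The genes and gene lists were chosen with earlier results of these data known. Genes named are the 4 genes, others joined to their peak, snoRNA hosts with a peak, textbook snoRNA genes with a peak, and those nearest to the adjoining ranks. Neighbouring genes, the 10 highest peaks, genes with motif matches on both strands and examples without a peak were named after their values were seen. RNA-seq samples were not analysed here.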

Additional observations from a re-analysis of the deposited data

How the results depend on the processing

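Of 24 alternative settings, 15 left the value unchanged or moved it little. The 15 include the TSS rule for joined genes, which left out Snord65 and took the count from 4 to 3 in both lists. The ranks of 5 and 1 held when overlapping peaks were merged (484 and 151 regions) and at an IDR score of at least 830 (506 and 110 peaks). The overlap of the EtOH and 4-OHT peaks held at 50% of both peaks, with summits within 100 bp and at that score, and the share of promoters with the core was 14% for protein-coding genes. The other 9 changed through the rule itself. Genes joined to the EtOH peak fell from 4 to 1 by the gene body only and to 1 by the nearest TSS, and those joined to the 4-OHT peak, a set of settings added after seeing the data, fell from 4 to 2 and to 1. snoRNA genes with an EtOH peak went from 14 to 3 by the TSS rule and to 0 by the gene body. Host genes went from 13 of 329 to 8 by the TSS rule and to 2 of 70 (2.86%) when protein-coding hosts were left out, or 1 of 69 (1.45%) without 2410006H16Rik, which was chosen for its peak. Core matches rose from 2 to 5 with 1 mismatch allowed. No paired analysis was possible because the lists pool the replicates of each treatment. For the same reason no replicate could be left out, the contribution of each antibody is unknown, and the depth that limits the lists is not given in them.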
